A study of Mus musculus with 27 samples.

Results

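The genes described here encode 10 enzymes of threonine, serine and one-carbon metabolism, namely Tdh, Gcat, Gldc, Shmt1, Shmt2, Phgdh, Psat1, Psph, Mthfd2 and Mat2a. They were taken by symbol as a pathway, with earlier results of these data known, and all 10 were found among the 20156 genes of the expression tables. Their RNA was read in 6 libraries, and the chromatin at their transcription start sites (TSSs) in 21 libraries of histone H3, H3K4me3, H3K27me3 and H3K9me3. The cells were mouse embryonic fibroblasts (MEFs), partially reprogrammed cells (pre-iPSCs) and induced pluripotent stem cells (iPSCs), and the design asks what changes at each of these steps of reprogramming. The MEFs came from embryos of day 13.5 that were hemizygous for an Oct4-GFP transgene and a Rosa26 allele, and were bred, per the study's methods, from transgenic males of CBA/CaJ and C57BL/6J background and 129Sv/Jae females. Pre-iPSCs and iPSCs were made from such MEFs by retroviral delivery of the Yamanaka factors (c-Myc, Klf4, Oct4 and Sox2), and RNA was taken after 6 passages. The study used a pair of pre-iPSC clones and the iPSCs derived from them, and the clone of each library is not given in the sources used here. Each cell type had 2 libraries per assay, called replicates 1 and 2, except H3K9me3 with 1. MEFs grew in fibroblast medium without feeders, whereas pre-iPSCs and iPSCs both grew on MEF feeders in a medium with more serum, sodium pyruvate and LIF. MEFs were also digested with a different amount of MNase, so cell type, medium, feeders and digestion cannot be told apart in any comparison with MEFs.

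Cells take up threonine and serine or make serine from glucose, and both amino acids feed glycine and the folate-bound one-carbon units used for nucleotides and methyl groups. In mitochondria, Tdh oxidises threonine and Gcat splits the product into glycine and acetyl-CoA. Gldc is the decarboxylase of the glycine cleavage system, which passes the one-carbon unit of glycine to folate. Shmt1 in the cytosol and Shmt2 in mitochondria interconvert serine and glycine, Phgdh, Psat1 and Psph make serine from a glycolytic intermediate, Mthfd2 oxidises the folate-bound unit in mitochondria, and Mat2a makes S-adenosylmethionine, the methyl donor of histone and DNA methylation. Mouse embryonic stem cells are known for high Tdh and for their need of threonine in the medium.

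Marker genes were read first, as a check of the labels. The summed level of 10 fibroblast markers was 4488 and 4263 FPKM in MEFs, 307 and 98.2 FPKM in pre-iPSCs and 208 and 246 FPKM in iPSCs. That of 10 pluripotency markers was 0.0439 and 0.532 FPKM in MEFs, 326 and 421 FPKM in pre-iPSCs and 1784 and 1886 FPKM in iPSCs. In MEFs, 8 and 6 of these 10 pluripotency markers were listed at 0, while Dppa3 was at 0 in both pre-iPSC libraries and at 11.3 and 41.2 FPKM in iPSCs. Most of the sum in pre-iPSCs was Tdgf1, at 228 and 333 FPKM, and 4 and 5 of the 10 markers were below 1 FPKM there, with Nanog, Zfp42 and Esrrb among them in both libraries. Fibroblast RNA was thus detected in all pre-iPSC and iPSC libraries, with a higher sum in pre-iPSC replicate 1 than in replicate 2. RNA of the MEF feeders and of the cultured cells themselves cannot be told apart here, and its part in the results below was not tested. In bulk libraries such as these, fewer cells with a transcript and less of it per cell cannot be told apart. The unique reads were 14757607 to 18871831 per library for the 3 modifications and 89510637 to 129862735 for H3.

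All 10 genes lie on autosomes in the mm9 annotation of the files. The sequences just before the start are given for the 3 members found in RefSeq's promoter table whose RNA differed between cell types, and for Phgdh, the first enzyme of serine synthesis, as a contrast with high RNA in MEFs. Of the 10 genes, 9 had an entry in that table (GRCm38.p6). Tdh had none, so its promoter is not printed and was not searched for motifs. Each printed run matched the mm9 genome at 1 place. They end at the base before the RefSeq start, on the minus strand for all but Gcat, and capitals mark CCAAT or its reverse complement ATTGG, the pentamer bound by NF-Y. The Gldc run covers chr19:30249932-30250181, that of Gcat chr15:78861154-78861303, that of Shmt1 chr11:60624768-60624917 and that of Phgdh chr3:98143893-98144042.
Gldc: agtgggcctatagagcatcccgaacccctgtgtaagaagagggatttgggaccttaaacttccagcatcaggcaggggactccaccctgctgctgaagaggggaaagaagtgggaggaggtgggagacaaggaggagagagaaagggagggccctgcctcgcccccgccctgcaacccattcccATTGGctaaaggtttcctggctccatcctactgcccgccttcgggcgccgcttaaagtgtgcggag
Gcat: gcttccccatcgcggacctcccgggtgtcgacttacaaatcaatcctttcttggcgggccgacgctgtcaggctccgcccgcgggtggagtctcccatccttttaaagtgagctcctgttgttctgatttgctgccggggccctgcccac
Shmt1: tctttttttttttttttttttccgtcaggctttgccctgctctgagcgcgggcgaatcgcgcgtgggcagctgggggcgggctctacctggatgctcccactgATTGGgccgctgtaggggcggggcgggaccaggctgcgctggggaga
Phgdh: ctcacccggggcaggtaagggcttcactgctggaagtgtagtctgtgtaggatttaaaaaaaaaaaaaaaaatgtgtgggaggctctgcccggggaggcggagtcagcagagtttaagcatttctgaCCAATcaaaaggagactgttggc

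The pentamer stood on either strand in the window from 250 bases before to 50 after the start in 7 of the 10 entries of the 9 members, Psat1 having 2 starts, and in 37.4% of the 32851 entries of the table. The entries without it were those of Gcat and Shmt2 and the start of Psat1 that the expression tables use, while the start of Psat1 437 bp upstream had it. The E-box CACGTG, which reads the same on both strands, was found in Gcat among these 9 members and in 7.15% of all promoters. The octamer ATTTGCAT was in none of the 9 and in 1.74% of promoters. TTGCATCA, a composite site of Atf4, was in none of the 9 and in 0.895%. Whether Tdh has any of these motifs was not read. The octamer and TTGCATCA have the letters TTGCAT in common, all motifs were searched on both strands, and a match is a description of the window alone. By CpG content most promoters of the members lay around the median of all promoters, with Mat2a and Psph above the rest. The ratio of observed to expected CpG within 500 bp of the TSS was 0.936 at Mat2a, which is higher than at 94% of promoters, 0.801 at Psph and 0.490 to 0.709 at the other 8 genes, against a median of 0.602 over all promoters.

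Tdh showed the widest range of RNA. It was listed at 0 in both MEF libraries, at 171 and 100.3 FPKM (fragments per kilobase, scaled to library size) in pre-iPSCs and at 23.8 and 28.6 FPKM in iPSCs. The 3 cell types did not overlap, and in pre-iPSC replicate 1 Tdh stood above 98.3% of genes. No fold against MEFs can be given for a gene listed at 0. On the scale of log2(FPKM + 1), Tdh rose by 7.04 ± 0.39 (SE) from MEFs to pre-iPSCs (limma, adjusted p = 0.000373), the seventh highest change of 12401 genes tested. It then fell by 2.28 ± 0.39 from pre-iPSCs to iPSCs (limma, adjusted p = 0.0137), to 0.193 times the mean FPKM. The fall was 0.139 times in the table of replicate 1 and 0.285 times in that of replicate 2. Its call was lost without pre-iPSC replicate 1 (log2 change -1.84, adjusted p = 0.217), without iPSC replicate 1 (-1.96, 0.153) and without iPSC replicate 2 (-2.60, 0.0999). In iPSCs Tdh was still higher than in MEFs by 4.76 ± 0.39 on the log2 scale (limma, adjusted p = 0.000754), and both calls against MEFs held under all 10 alternative settings.

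Gldc rose over both steps and was highest in iPSCs. Its level was 0.131 and 0.0609 FPKM in MEFs, 1.31 and 2.36 FPKM in pre-iPSCs and 24.6 and 25.8 FPKM in iPSCs, with no overlap between cell types. From pre-iPSCs to iPSCs Gldc rose 13.7-fold in mean FPKM, by 3.23 ± 0.37 on the log2(FPKM + 1) scale (limma, adjusted p = 0.00348), a call that was lost without iPSC replicate 1 (3.16, adjusted p = 0.0744) or iPSC replicate 2 (3.31, adjusted p = 0.0666). From MEFs to iPSCs it rose 263-fold, by 4.58 ± 0.37 (limma, adjusted p = 0.000754), and this call held under all 10 alternatives. The fold rests on MEF levels near 0, and it was 188 and 424 in the tables of replicates 1 and 2. The first step was a 19.1-fold rise in mean FPKM from MEFs to pre-iPSCs, 10.0-fold and 38.7-fold in the tables of replicates 1 and 2. The second step was 18.7-fold and 10.96-fold in the same tables, so that it was the larger ratio in replicate 1 and the smaller in replicate 2. On the log2(FPKM + 1) scale, which understates changes of low genes, the first step was 1.35 ± 0.37 (limma, adjusted p = 0.0489). With a pseudocount of 0.1 the first step was 3.27 (limma, adjusted p = 0.00792) and the second 3.76 (0.00827), so which step was larger depends on the scale and on the replicate. The same pseudocount gave 7.04 for Gldc and 8.03 for Tdh from MEFs to iPSCs. With a pseudocount of 1, the call of the first step was lost under 7 of the 10 alternatives, with adjusted p up to 0.559 without pre-iPSC replicate 2. The others that ended it were no filter on low values (0.113), quantile normalization (0.0643), and leaving out MEF replicate 2 (0.183), pre-iPSC replicate 1 (0.211), iPSC replicate 1 (0.0765) or iPSC replicate 2 (0.0767).

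Gcat, the enzyme after Tdh, and Shmt1 also rose from MEFs to pre-iPSCs. Gcat was at 5.36 and 7.36 FPKM in MEFs, 32.0 and 21.5 FPKM in pre-iPSCs and 22.0 and 10.1 FPKM in iPSCs. Its level was higher in every pre-iPSC and iPSC library than in either MEF library, and pre-iPSCs and iPSCs overlapped. Gcat rose 4.20-fold in pre-iPSCs (log2 change 1.90 ± 0.43, limma adjusted p = 0.0245), by 5.96-fold and 2.92-fold in the tables of replicates 1 and 2. The log2 change was 1.30 without MEF replicate 1 and 2.50 without MEF replicate 2. The change in iPSCs against MEFs was 1.13 ± 0.43 with an adjusted p of 0.0957, and it passed without MEF replicate 2 (1.73, 0.00756). The call in pre-iPSCs was lost with no filter on low values (adjusted p = 0.0646) and without pre-iPSC replicate 1 (0.175), pre-iPSC replicate 2 (0.129), iPSC replicate 1 (0.0521) or iPSC replicate 2 (0.0517).

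Shmt1 was at 8.54 and 3.44 FPKM in MEFs, 26.1 and 18.2 FPKM in pre-iPSCs and 30.9 and 25.2 FPKM in iPSCs. Every pre-iPSC and iPSC library lay above both MEF libraries, and the ranges of pre-iPSCs and iPSCs overlapped. The rise was 3.70-fold to pre-iPSCs (log2 change 1.81 ± 0.37, limma adjusted p = 0.0163) and 4.68-fold from MEFs to iPSCs (2.15 ± 0.37, limma adjusted p = 0.00657). The first was lost without pre-iPSC replicate 1 (adjusted p = 0.116) or 2 (0.202), and the second without iPSC replicate 1 (0.0581) or 2 (0.0713). Its mitochondrial counterpart Shmt2 was already high in MEFs. Shmt2 stood at 144 and 89.5 FPKM in MEFs, 110.4 and 84.1 FPKM in pre-iPSCs and 199 and 113 FPKM in iPSCs, and passed the test in no comparison (limma, adjusted p of 0.401 to 0.733). FPKM is a level per length, so the genes can be compared with each other. In MEFs the mean level of Shmt2 was 117 ± 38.5 FPKM and that of Shmt1 5.99 ± 3.61 FPKM (SD, n = 2), and in iPSCs they were 156 ± 60.6 and 28.0 ± 4.07 FPKM (SD, n = 2).

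**Figure D1:**
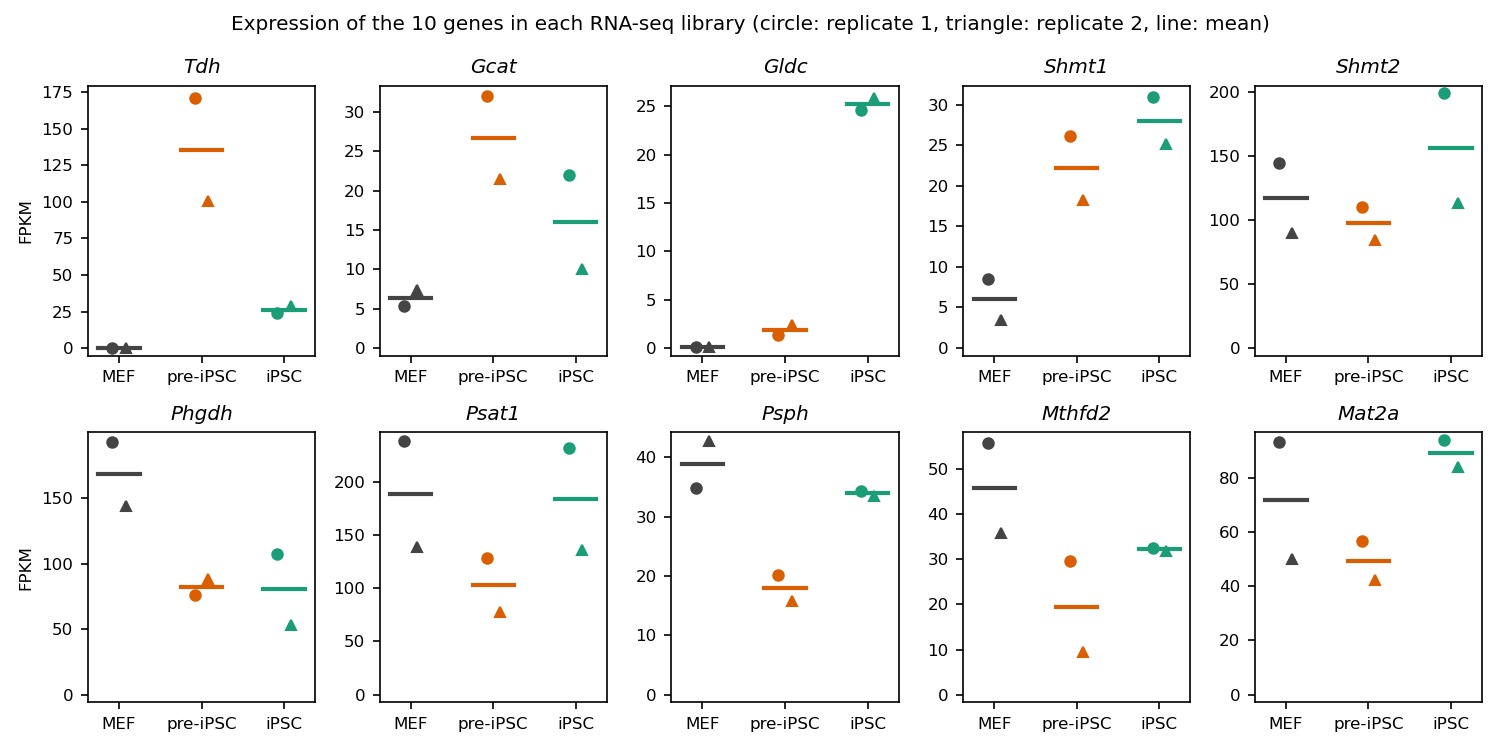
Expression of the 10 genes in FPKM (linear axes, a scale of its own for each gene) in MEFs, pre-iPSCs and iPSCs, with circles for replicate 1, triangles for replicate 2 and lines for the mean. Tdh was listed at 0 in MEFs and reached 171 FPKM in pre-iPSCs, Gldc reached 25.8 FPKM in iPSCs, and Psat1, Psph and Mthfd2 had both pre-iPSC libraries below those of MEFs and iPSCs.

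The 3 enzymes of serine synthesis were abundant in MEFs and none of them passed the test in any comparison. Phgdh was at 193 and 144 FPKM in MEFs, 75.9 and 88.5 FPKM in pre-iPSCs and 108 and 53.0 FPKM in iPSCs. Both MEF libraries lay above all others, and pre-iPSCs and iPSCs overlapped. The log2 change from MEFs was -1.01 ± 0.42 to pre-iPSCs (limma, adjusted p = 0.152) and -1.13 ± 0.42 to iPSCs (0.0915).

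Psat1 was at 238 and 139 FPKM in MEFs, 128 and 77.8 FPKM in pre-iPSCs and 231 and 136 FPKM in iPSCs. Within each table, the iPSC value was 0.971 and 0.977 times that of MEFs, and the pre-iPSC value 0.537 and 0.560 times. The log2 change to pre-iPSCs was -0.86 ± 0.38 (limma, adjusted p = 0.171). Psph, the phosphatase of the last step, was at 34.8 and 42.9 FPKM in MEFs, 20.2 and 15.7 FPKM in pre-iPSCs and 34.4 and 33.6 FPKM in iPSCs, with a log2 change to pre-iPSCs of -1.07 ± 0.35 (limma, adjusted p = 0.0788). Mthfd2 was at 55.9 and 35.8 FPKM in MEFs, 29.6 and 9.35 FPKM in pre-iPSCs and 32.5 and 32.0 FPKM in iPSCs, with a log2 change to pre-iPSCs of -1.36 ± 0.44 (limma, adjusted p = 0.0767). Pre-iPSCs had the lowest levels of Psat1, Psph and Mthfd2, below both other cell types in all libraries, though none of these passed the test in the main fit. The share of all genes with this pattern was not counted. Pre-iPSCs did not overlap with MEFs for 53.9% of all genes tested, nor with iPSCs for 52%, in either direction. Without MEF replicate 1 both Mthfd2 (log2 change -1.44, adjusted p = 0.0324) and Psph (-1.31, 0.0334) passed the test as lower in pre-iPSCs. Mat2a was at 93.1 and 50.1 FPKM in MEFs, 56.4 and 42.2 FPKM in pre-iPSCs and 94.0 and 84.0 FPKM in iPSCs. MEFs and pre-iPSCs overlapped, and iPSCs lay above pre-iPSCs (log2 change 0.85 ± 0.37, limma adjusted p = 0.237).

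Counted over the list, 4 of the 10 genes were called higher and none lower in pre-iPSCs against MEFs, where 16.4% of all genes tested were called in either direction. Since the list was drawn up with results known, its counts are a description beside the background. In iPSCs against pre-iPSCs, Gldc was called higher and Tdh lower, against 8.62% of all genes. In iPSCs against MEFs, 3 were called higher and none lower, against 25.9% of all genes. The median log2 change of the 10 was -0.36 from MEFs to pre-iPSCs, 0.73 from pre-iPSCs to iPSCs and 0.39 from MEFs to iPSCs, and over all genes tested it was -0.04, -0.09 and -0.14. Both replicates of one cell type lay above or below both of the other for 8 of the 10 genes in pre-iPSCs against MEFs, 4 above and 4 below, as they did for 53.9% of all genes tested. The count was 7 in iPSCs against pre-iPSCs, 6 above and 1 below, against 52% of all genes, and 7 in iPSCs against MEFs, 4 above and 3 below, against 62.9%. The comparisons share libraries. With 2 libraries against 2, an exact permutation test of a single gene cannot go below p = 0.33, so the calls rest on the spread shared by all genes in limma.

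**Figure D2:**
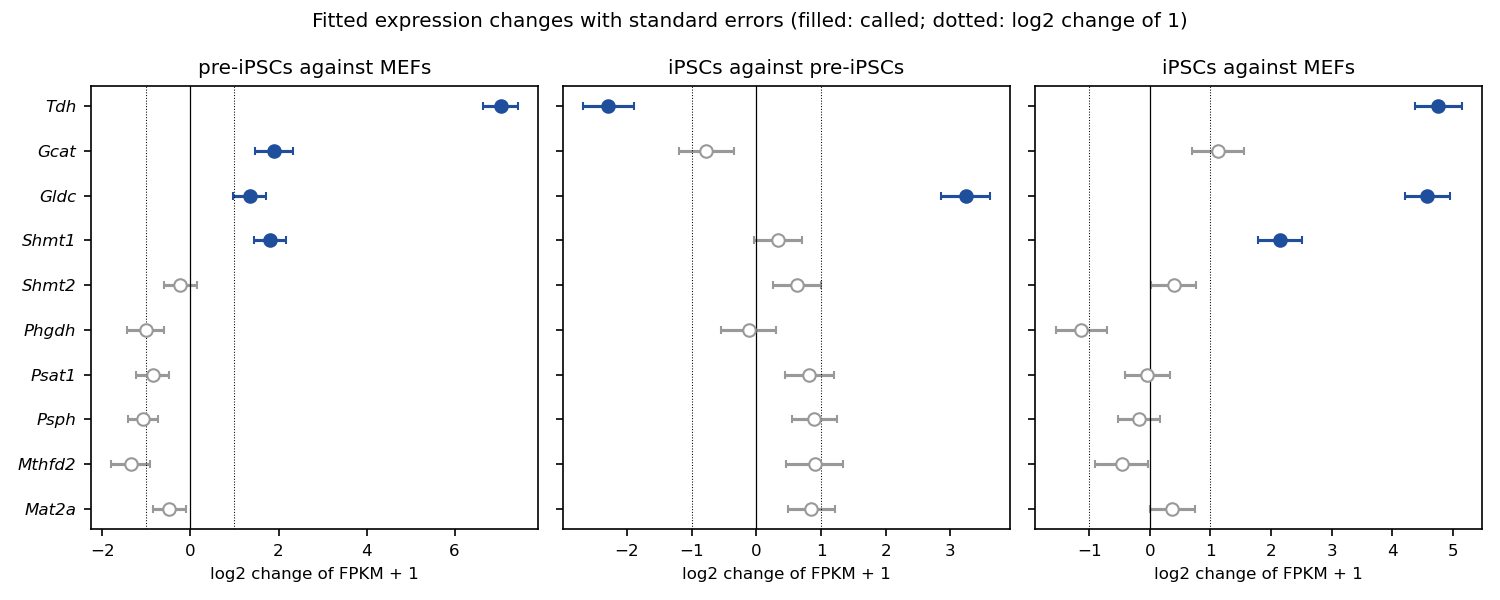
Fitted change of each of the 10 genes on the log2(FPKM + 1) scale (x axis) with its standard error, in the 3 comparisons. Filled points passed both thresholds (adjusted p under 0.05, log2 change beyond 1 or -1, the dotted lines). Tdh is called in all 3, at 7.04, -2.28 and 4.76, and Gldc at 1.35, 3.23 and 4.58.

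Among the 12401 genes tested, 4134 others varied over a range of at least 2 on the log2 scale, and the profile most like that of Tdh over the 6 libraries was that of Slc37a1 (Pearson r = 0.996), followed by B4galnt4, Itpk1, Slc28a1 and Dsg2 (r = 0.995 to 0.992). Itpk1, a kinase of inositol phosphates, was at 1.93 and 1.55 FPKM in MEFs, 119 and 94.1 FPKM in pre-iPSCs and 35.3 and 23.8 FPKM in iPSCs. The genes most like Gldc were Cbx7, Pycard, Aire, Cecr2 and Pecam1 (r = 0.998 to 0.997). Cbx7, a chromobox subunit of Polycomb complexes, was at 0.866 and 0.509 FPKM in MEFs, 3.47 and 5.10 FPKM in pre-iPSCs and 52.7 and 49.5 FPKM in iPSCs. Only 3 cell types are behind the 6 points, and these are descriptions with no test. A correlation above 0.9 was reached by 224 genes with Tdh and by 342 with Gldc.

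Other genes were read from 7 lists of 56 genes, 48 of which were tested. The lists hold further genes of the pathway, except the list of Atf4, which was limited to Atf4 and known targets outside the pathway. The calls in pre-iPSCs against MEFs were 5 higher and 5 lower of the 48 (20.8%), those in iPSCs against pre-iPSCs were 1 and 1 (4.17%), and 7 and 6 (27.1%) were found between MEFs and iPSCs. Over all genes tested the shares called were 16.4%, 8.62% and 25.9%, so those of the lists were near the background. The median log2 change of the 48 was -0.22, 0.23 and -0.01 in the same order, beside -0.04, -0.09 and -0.14 over all genes tested. Calls of single genes in these lists are those of the main fit, and whether they held under the alternatives is not given here.

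In the glycine cleavage system, Amt, the aminomethyltransferase that works beside Gldc, was at 0.496 and 0.127 FPKM in MEFs, 2.34 and 1.01 FPKM in pre-iPSCs and 24.4 and 28.0 FPKM in iPSCs. Amt rose by 3.39 ± 0.39 on the log2 scale from pre-iPSCs to iPSCs (limma, adjusted p = 0.00350) and by 4.38 ± 0.39 from MEFs to iPSCs (0.000950). The other 2 genes of that list, Gcsh and Dld, were called in no comparison.

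Tha1, a threonine aldolase that splits threonine to glycine and acetaldehyde, was at 0.227 and 0.833 FPKM in MEFs, 3.48 and 3.64 FPKM in pre-iPSCs and 0.351 and 0.199 FPKM in iPSCs. It was called higher in pre-iPSCs than in MEFs (log2 change 1.60 ± 0.33, limma adjusted p = 0.0176) and lower in iPSCs than in pre-iPSCs (-1.84 ± 0.33, 0.0175), though its level was low and it passed the filter of 0.5 FPKM through its pre-iPSC libraries. Of the 6 tested genes for serine and glycine transport and other use, the glycine transporter Slc6a9 fell from 12.6 and 5.19 FPKM in MEFs to 1.40 and 1.42 FPKM in pre-iPSCs (limma, adjusted p = 0.0228). Slc1a5, a carrier of neutral amino acids, rose from 16.9 and 12.0 FPKM in MEFs to 50.1 and 42.8 FPKM in iPSCs (limma, adjusted p = 0.0122).

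Both genes of transsulfuration, the route from homocysteine and serine to cysteine, were called higher in pre-iPSCs against MEFs, where 16.4% of all genes tested were called. So short a list cannot be set apart from that share. Cbs rose from 0.258 and 0.266 FPKM to 2.22 and 2.70 FPKM (limma, adjusted p = 0.0274) and Cth from 20.6 and 6.20 FPKM to 96.5 and 52.1 FPKM (limma, adjusted p = 0.0301). Cth was at 9.40 and 20.8 FPKM in iPSCs, and its change from pre-iPSCs had an adjusted p of 0.0674. Of 10 tested genes of the methionine cycle, Mtr, the methionine synthase that uses methyl-folate, rose to 37.4 and 13.5 FPKM in pre-iPSCs from 5.90 and 0.705 FPKM in MEFs (limma, adjusted p = 0.0109), and Mtap fell from 72.7 and 56.6 FPKM to 24.0 and 21.9 FPKM (0.0279). In iPSCs against MEFs, Mtap and Ahcyl1 were called lower and Gnmt higher. Gnmt was at 0.223 and 0.257 FPKM in MEFs and at 2.40 and 1.17 FPKM in iPSCs (limma, adjusted p = 0.0373). Its level was low, and it passed the filter of 0.5 FPKM through its iPSC libraries.

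In pre-iPSCs and in iPSCs against MEFs, 1 and 3 of 13 cytosolic and nucleotide genes passed and 1 and 2 of 5 mitochondrial genes, where 16.4% and 25.9% of all genes did. These counts are too small to set the lists apart from the background. Of 13 tested cytosolic and nucleotide genes, Mthfd1, the trifunctional folate enzyme, rose from 22.4 and 11.2 FPKM in MEFs to 123 and 63.3 FPKM in pre-iPSCs (log2 change 2.41 ± 0.33, limma adjusted p = 0.00432) and was at 92.6 and 48.3 FPKM in iPSCs. Gart, of purine synthesis, was called higher and Ggh, a hydrolase of folate polyglutamates, lower in iPSCs against MEFs. Of 5 tested mitochondrial genes, Aldh1l2 fell from 25.8 and 8.57 FPKM in MEFs to 0.956 and 0.518 FPKM in pre-iPSCs (log2 change -3.22 ± 0.49, limma adjusted p = 0.00622) and stayed at 0.796 and 1.37 FPKM in iPSCs, and Mthfd2l was called lower in iPSCs against MEFs (-1.84 ± 0.36, 0.0102). Of the 9 genes for Atf4 and its targets, Chac1 and Ddit3 fell in pre-iPSCs against MEFs, Ddit3 fell and Sesn2 rose in iPSCs against MEFs, and the other 6, Atf4 among them, were called in no comparison.

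**Figure D3:**
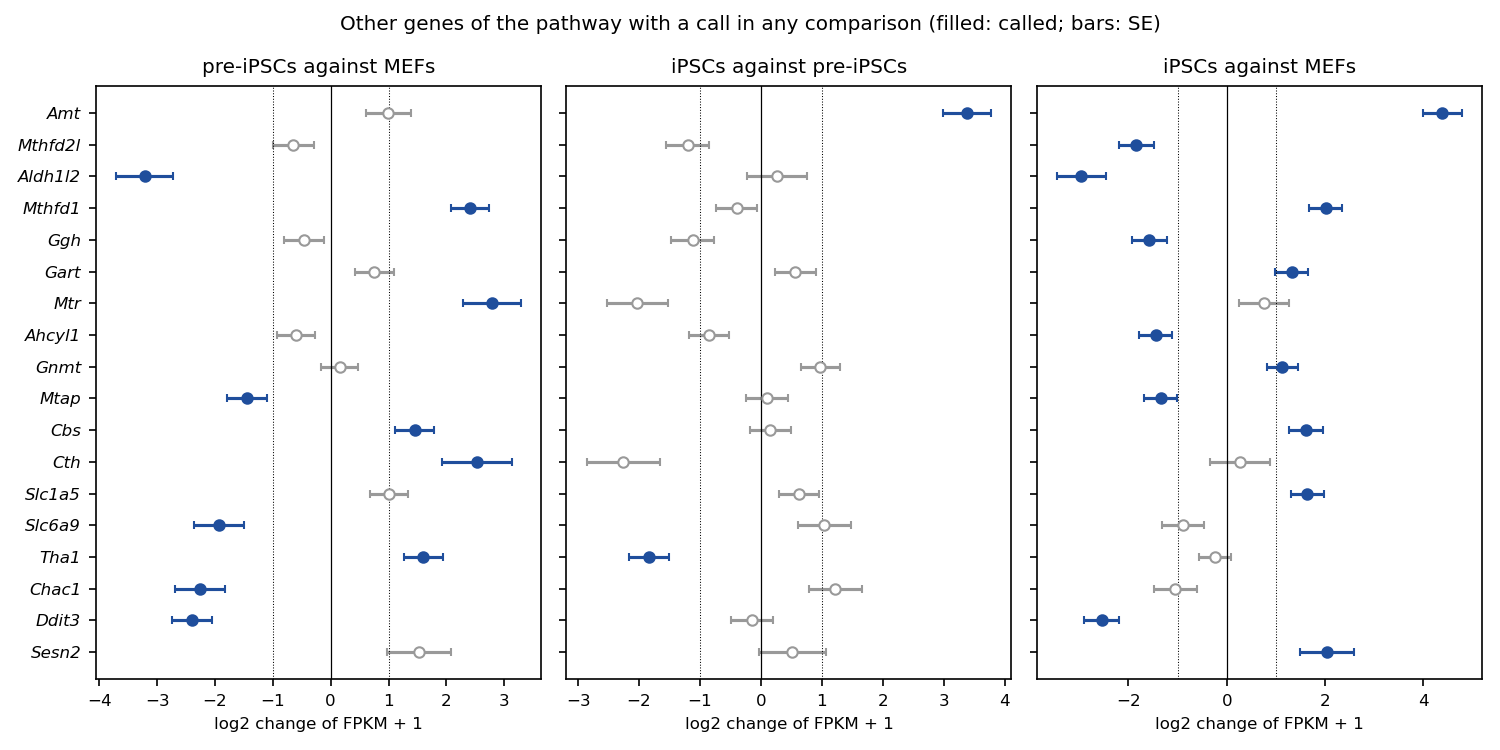
Fitted log2 changes (x axis, log2 of FPKM + 1, with SE) of the 18 genes of the lists that were called in at least 1 comparison and named by the rule, filled where called. Chac1, Ddit3 and Sesn2 are from the list of Atf4 and its targets, outside the pathway. Amt sits at 3.39 and 4.38 in the 2 comparisons of iPSCs, and Tha1 at 1.60 and -1.84 in the first and second panel.

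At the promoters, reads of called nucleosomes were counted within 1000 bp of the TSS and are also given per 1000000 unique reads of the library (RPM). A window of this size would hold about 10 reads of H3K4me3 or H3K27me3 at the mean density of the genome (9.39 to 11.9 reads per library), and the median promoter held 25 to 36 reads of H3K4me3 and 6 to 9 of H3K27me3, so all values of the members are low counts. The start of Psph lies 186 bp from that of Cct6a on the other strand, and their promoter reads cannot be separated. The share of all promoters whose libraries do not overlap between cell types was not counted for any mark. Non-overlap at a member is therefore given without a background.

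The promoter of Tdh held more H3K4me3 and less H3K27me3 in pre-iPSCs than in MEFs, by calls that did not hold under all alternatives. It held 14 and 24 reads of H3K4me3 in MEFs against 40 and 41 in pre-iPSCs, with 16 and 41 in iPSCs, or 0.949 and 1.53, 2.45 and 2.66, and 0.993 and 2.70 RPM. Pre-iPSCs lay above MEFs in both libraries and the iPSC replicates were apart from each other. The log2 change from MEFs to pre-iPSCs was 1.40 ± 0.35 (edgeR, adjusted p = 0.0145), and Tdh was the 1 member called among the 10, where 3.8% of promoters were called. The call was lost with a window of 500 bp (adjusted p = 0.177), with DESeq2 (0.702), and without MEF replicate 1 (0.275) or pre-iPSC replicate 2 (0.104). In iPSCs against MEFs Tdh was not called (0.88 ± 0.37, edgeR adjusted p = 0.0997). It passed without MEF replicate 2 (log2 change 1.43) or without iPSC replicate 1 (1.49), so its size rests on single libraries. The reads gained lay mostly past the start. In the 1000 bp downstream Tdh had 3 and 10 reads in MEFs and 27 and 24 in pre-iPSCs, and in the 1000 bp upstream 11 and 14 against 13 and 17.

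H3K27me3 at Tdh went the other way. It had 24 and 23 reads in MEFs against 10 and 10 in pre-iPSCs, with 10 and 14 in iPSCs. In RPM these were 1.45 and 1.22, 0.563 and 0.611, and 0.576 and 0.836, so that both MEF libraries lay above all others. The log2 change to pre-iPSCs was -1.18 ± 0.39 (edgeR, adjusted p = 0.0463). With a window of 500 bp Tdh was not tested, so there was no call. Of the 11 other alternatives, 7 ended the call. These were calls of at least 2 reads (adjusted p = 0.0946), library sizes as unique reads (0.0517), DESeq2 (0.586), the replicate block (0.0547), and leaving out MEF replicate 1 (0.201), pre-iPSC replicate 1 (0.239) or pre-iPSC replicate 2 (0.162). In iPSCs against MEFs it was -0.97 ± 0.38 (edgeR, adjusted p = 0.0814). Over the wider region of 2500 bp either side there were 63 and 60 reads in MEFs against 31 and 23 in pre-iPSCs, with 25 and 30 in iPSCs.

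The promoter of Gldc had the highest H3K27me3 of the members in MEFs and less in pre-iPSCs and iPSCs. It held 35 and 45 reads in MEFs against 17 and 14 in pre-iPSCs, with 8 and 14 in iPSCs, or 2.12 and 2.38, 0.957 and 0.856, and 0.461 and 0.836 RPM. In MEFs this stood above 98.6% and 99.4% of promoters, and both MEF libraries lay above all others. The log2 change was -1.31 ± 0.32 to pre-iPSCs (edgeR, adjusted p = 0.00499) and -1.85 ± 0.35 from MEFs to iPSCs (0.000152). The second change held under 11 of 12 alternatives, all but DESeq2 (adjusted p = 0.0834). The first was lost with a window of 500 bp (0.173), with DESeq2 (0.291) and without pre-iPSC replicate 2 (0.0565). From pre-iPSCs to iPSCs neither mark was called at Gldc (H3K27me3 -0.54 ± 0.42, edgeR adjusted p = 0.696). In that comparison 0% of promoters tested were called for H3K4me3 and 0.798% for H3K27me3, so the lack of a call says little about Gldc. H3K4me3 at Gldc was present in MEFs already and had no call in any comparison. Its reads were 48 and 35 in MEFs against 30 and 34 in pre-iPSCs, with 33 and 31 in iPSCs, or 3.25 and 2.23, 1.84 and 2.21, and 2.05 and 2.04 RPM, with log2 changes of -0.05 ± 0.27 to pre-iPSCs and -0.07 ± 0.27 from MEFs to iPSCs (edgeR, adjusted p = 0.936 and 0.881).

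When a mark is taken as present above 1 RPKM within 500 bp of the TSS, Gldc in MEFs was the only promoter of the 10 with H3K27me3, at 1.03 and 1.43 RPKM against 0.787 and 0.366 RPKM in pre-iPSCs, with 0.173 and 0.358 RPKM in iPSCs. H3K4me3 there was 1.42 and 0.955 RPKM in MEFs, so that replicate 1 passed for both marks and replicate 2 for H3K27me3 alone. In bins of 500 bp out to 2500 bp on either side of the start of Gldc, H3K27me3 in MEFs was above that in iPSCs in 10 of 10 bins in replicate 1 and in 9 of 10 in replicate 2, and at Tdh in 9 of 10 in each. For H3K4me3, MEFs were above iPSCs in 8 and 7 of 10 bins at Gldc, where it had no call, and in 8 and 3 at Tdh. Bins of a library are not replicates, and some lie inside the window tested above, so these counts are a description.

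**Figure D4:**
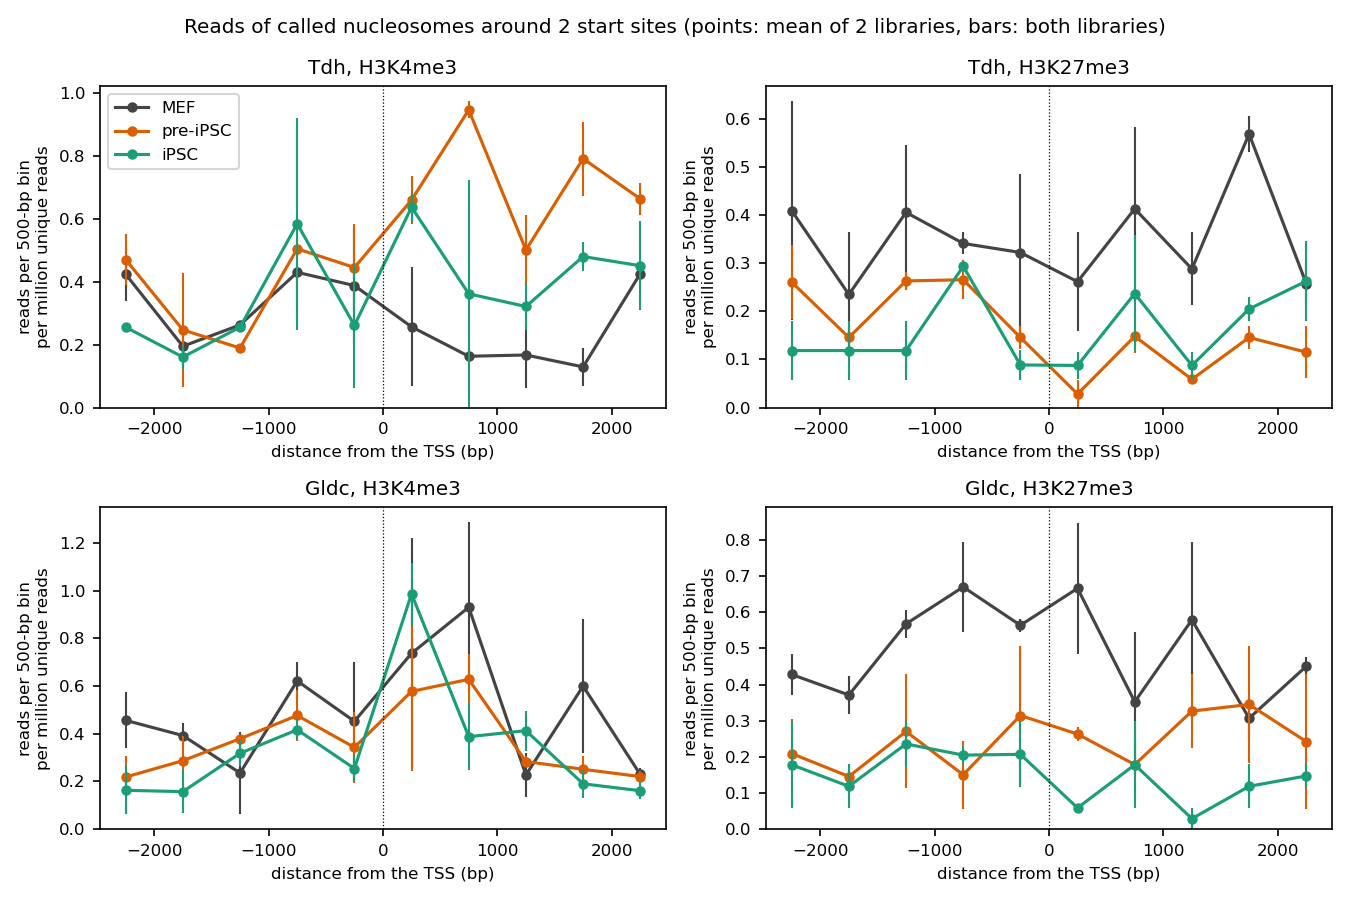
Reads of called nucleosomes in 500-bp bins by distance from the TSS (x axis, bp, positive in the direction of transcription) in RPM (y axis), at Tdh above and Gldc below, for H3K4me3 on the left and H3K27me3 on the right. Points are means of 2 libraries and vertical bars join both libraries. H3K4me3 past the start of Tdh is higher in pre-iPSCs than in MEFs, and H3K27me3 is higher in MEFs at both genes in most bins.

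Mat2a was the 1 member whose H3K4me3 was called in iPSCs against MEFs, where 13.8% of promoters were called. It held 72 and 65 reads in MEFs against 47 and 39 in pre-iPSCs, with 36 and 27 in iPSCs, or 4.88 and 4.14, 2.88 and 2.53, and 2.24 and 1.78 RPM. The 3 cell types did not overlap, though levels in RPM fell from MEFs at the median promoter too. That median was 2.44 and 1.91 RPM in MEFs, 1.72 and 1.62 RPM in pre-iPSCs and 1.80 and 1.71 RPM in iPSCs. The log2 change of Mat2a from MEFs to iPSCs was -0.82 ± 0.24 (edgeR, adjusted p = 0.0188), while its RNA did not pass the test (log2 change 0.37 ± 0.37). The call was lost with DESeq2 (adjusted p = 0.280) and without MEF replicate 1 (0.0858), MEF replicate 2 (0.0669), iPSC replicate 1 (0.0651) or iPSC replicate 2 (0.119). With a window of 500 bp the log2 change was -1.41 (adjusted p = 0.0176).

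In MEFs the highest H3K4me3 of the members was at Psph, with 94 and 68 reads (6.37 and 4.33 RPM), against 42 and 41 reads in iPSCs. Psph (-0.66 ± 0.24, edgeR adjusted p = 0.0536), Psat1 (-0.71 ± 0.27, 0.0665) and Shmt2 (-0.65 ± 0.25, 0.0739) missed the threshold in iPSCs against MEFs. With library sizes taken as unique reads all 3 passed (-1.01, -1.05 and -0.99, adjusted p = 0.0221, 0.0182 and 0.0255). This scaling moved the median log2 change of all promoters from -0.03 to -0.38 and the share of calls that were higher from 69.7% to 26.2%, so the fall of the 3 genes is to be read against that median. In pre-iPSCs against MEFs it moved the median from -0.02 to -0.40 and the share of higher calls from 78.4% to 17%, and Tdh was called higher under both. Psph also passed with the replicate block (adjusted p = 0.0458). Shmt1, whose RNA rose, had 28 and 33 reads of H3K4me3 in MEFs against 32 and 29 in pre-iPSCs, with 25 and 29 in iPSCs (log2 change 0.31 ± 0.30 to pre-iPSCs, edgeR adjusted p = 0.590). Its mean was 2.00 RPM in MEFs and 1.92 RPM in pre-iPSCs, so the sign of this change depends on the scaling. Gcat had 53 and 47, 40 and 27, and 34 and 28 reads, all pre-iPSC and iPSC libraries being below MEFs. The median promoter lay below MEFs as well, with 36 and 30, 28 and 25, and 29 and 26 reads in the same order. The fitted change of Gcat to pre-iPSCs was -0.26 ± 0.25 (edgeR, adjusted p = 0.595). No promoter was called for H3K4me3 in iPSCs against pre-iPSCs with edgeR (0% of 17689 tested, 1581 at an unadjusted p below 0.05), nor with DESeq2.

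**Figure D5:**
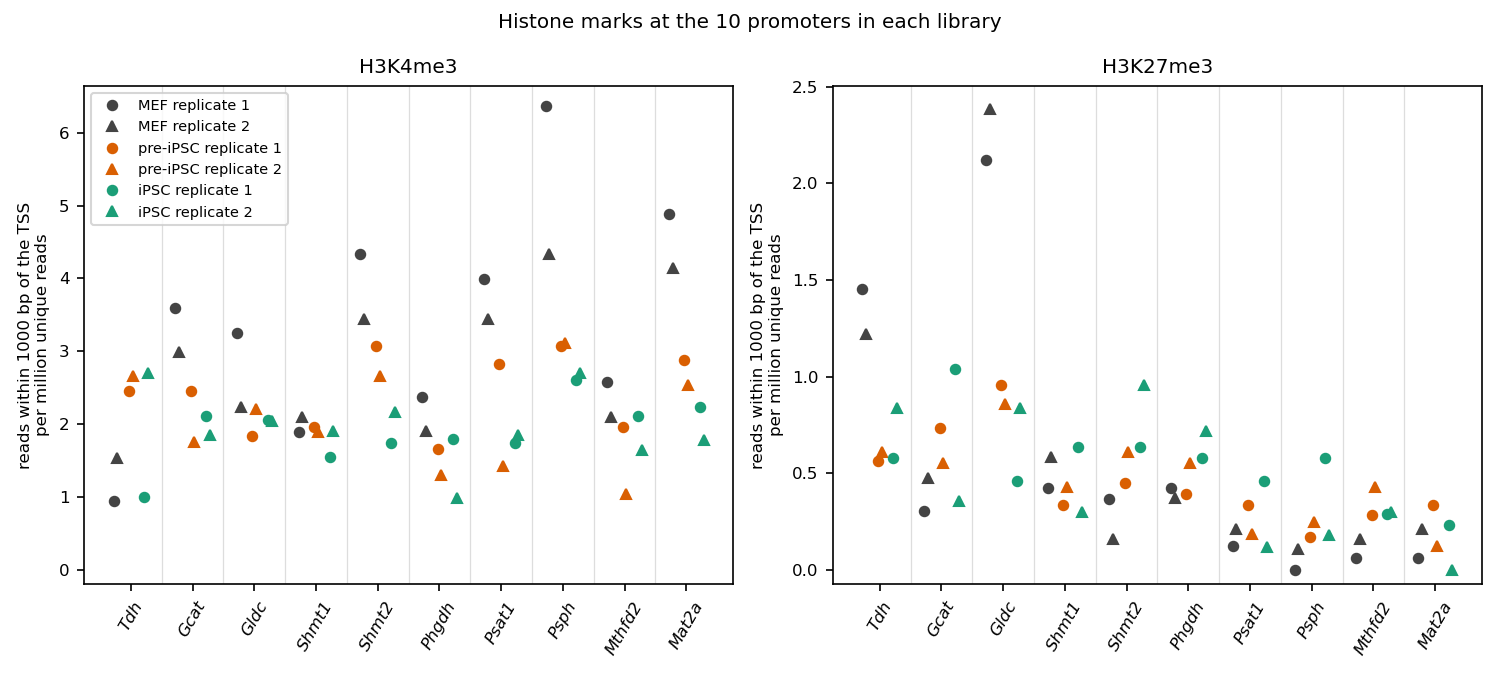
Reads of called nucleosomes within 1000 bp of the TSS in RPM (y axis) of H3K4me3 (left) and H3K27me3 (right) at the 10 promoters, 1 point per library, circles for replicate 1 and triangles for replicate 2. The MEF libraries stand at 2.12 and 2.38 for H3K27me3 at Gldc and at 1.45 and 1.22 at Tdh, and H3K27me3 at the other members is near or below 1 RPM.

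Only 5 of the 10 promoters (Tdh, Gcat, Gldc, Shmt1 and Shmt2) had enough H3K27me3 reads to be tested. Of these, 2 were called lower in pre-iPSCs against MEFs (8.1% of promoters were called), none in iPSCs against pre-iPSCs (0.798%), and 1 lower and 1 higher in iPSCs against MEFs (11.1%). Shmt2 was the one called higher, from 6 and 3 reads in MEFs against 8 and 10 in pre-iPSCs, with 11 and 16 in iPSCs (log2 change 1.55 ± 0.54, edgeR adjusted p = 0.0464). It passed the filter through its iPSC libraries, and its values lie around the mean density of the genome given above. With a window of 500 bp and with calls of at least 2 reads Shmt2 was not tested, so there was no call. Of the 10 other alternatives, 9 ended the call, including the removal of any 1 of the 6 libraries. The log2 change was 2.19 without MEF replicate 1 and 0.93 without MEF replicate 2. The other 5 promoters (Phgdh, Psat1, Psph, Mthfd2 and Mat2a) held 0 to 12 reads in every library.

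Total H3 gave no call at any promoter in any of the 3 comparisons (0% of 19543 tested with edgeR, and none with DESeq2). At an unadjusted p below 0.05 there were 373 promoters in pre-iPSCs against MEFs, 106 in iPSCs against pre-iPSCs and 297 from MEFs to iPSCs. Replicate 1 stood apart in both reprogrammed cell types, with a median of 143 reads per promoter in pre-iPSCs and 102 in iPSCs, against 37 and 44 in replicate 2 and 39 and 46 in MEFs. Without replicate 2 of pre-iPSCs the calls rose to 4582 and 2143 in the first and second comparison, Shmt1 among the first (log2 change -1.51, adjusted p = 0.0332). Without replicate 1 of pre-iPSCs they stayed at 0. Between 150 bp before and 50 bp past the start, H3 reads were few at most members. Gcat, Shmt1, Shmt2, Phgdh, Psph, Mthfd2 and Mat2a had 0 to 4 in the 6 libraries. Tdh had 7 and 13 reads in MEFs against 49 and 13 in pre-iPSCs, with 12 and 3 in iPSCs. In the same order Gldc had 0 and 6, 30 and 4, and 5 and 5, and Psat1 had 0 and 5, 18 and 2, and 0 and 3.

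H3K9me3 had 1 library per cell type, so that no test is possible and the intervals (exact Poisson, 95%) cover counting error only. The members held 2 to 20 reads in MEFs, 2 to 13 in pre-iPSCs and 6 to 16 in iPSCs. Tdh had the highest value in each, 20, 13 and 16 reads, or 1.31 (0.802 to 2.03), 0.811 (0.432 to 1.39) and 1.06 (0.605 to 1.72) RPM, and the intervals overlap. At Gldc the reads were 15, 9 and 9, or 0.984 (0.551 to 1.62), 0.562 (0.257 to 1.07) and 0.596 (0.272 to 1.13) RPM. Gcat had 4, 9 and 15 reads, or 0.263 (0.0715 to 0.672), 0.562 (0.257 to 1.07) and 0.993 (0.556 to 1.64) RPM, the intervals of MEFs and iPSCs overlapping narrowly. The median promoter was at 0.394, 0.499 and 0.530 RPM, and with 1 library each these values do not show whether cell types differ.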

How the data were processed

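RNA-seq, H3, H3K4me3, H3K27me3 and H3K9me3 data of 27 samples were used. The FPKM were deposited by the authors, who aligned with TopHat and used Cuffdiff, in 2 tables of 1 library per cell type each. The ChIP files, as deposited by the authors, list nucleosomes called with GeneTrack on unique mm9 alignments, each with its count of reads. The submitters' processing notes name Bowtie 1.0.1, TopHat2 2.0.4 and Cufflinks 2.0.2. Reads outside calls were not used here.

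Genes of mean FPKM 0.5 or more entered a limma 3.58.1 fit (trend) of log2(FPKM + 1) on cell type and table. A gene was called where its adjusted p was under 0.05 and its log2 change 1 or more in size. Reads of calls whose dyad lay within 1000 bp of the TSS over all promoters entered edgeR's quasi-likelihood test (version 4.0.16, TMM factors, low counts removed by filterByExpr) and were called at an adjusted p below 0.05, with DESeq2 1.42.0 as an alternative. Benjamini-Hochberg adjustment was over all features tested. Levels are RPM, reads scaled to library totals of unique reads, taken from the study's table of sequencing. Where leaving out a library left 1 of its cell type, that one was assumed to have the spread of the other groups. Fits were tested on simulated data. The work ran in R 4.3.3 and Python 3.11.15 with pandas 2.3.3.

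All 10 members are reported. From each pathway list, up to 4 genes called in any comparison were named, by the size of the change from MEFs to iPSCs. For Tdh and Gldc the 5 genes of highest correlation were named. Itpk1 and Cbx7 were given values after they were seen, as were the 4 printed promoters and the motifs searched. The members and lists were chosen with earlier results of these data known. The 2 libraries of a cell type are biological replicates of the study, whose clones are not given in the sources used here.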

Additional observations from a re-analysis of the deposited data

How the results depend on the processing

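No called value of the 10 genes changed direction under any alternative, and the calls that were lost or gained are given with the results above. With DESeq2, no member kept a call of H3K4me3 or H3K27me3 in any comparison. The counts over all features moved more. Without the filter on low FPKM the genes called in pre-iPSCs against MEFs went from 2032 to 1244. For H3K4me3 the promoters called in pre-iPSCs against MEFs went from 672 to 277 with a window of 500 bp, to 1365 with unique reads as library sizes and to 31 with DESeq2, and those in iPSCs against MEFs from 2442 to 905 and, with DESeq2, to 119. Between pre-iPSCs and iPSCs the count of 0 became 21 with unique reads, 19 without the filter and 10 with the replicate block. For H3K27me3 the counts went from 842 to 102 (500 bp) and 45 (DESeq2) in pre-iPSCs against MEFs, and from 1157 to 173 (500 bp), 658 (calls of at least 2 reads) and 19 (DESeq2) from MEFs to iPSCs. Between pre-iPSCs and iPSCs they went from 83 to 4 (500 bp), 34 (at least 2 reads), 0 (DESeq2), 49 (no filter) and 51 (replicate block). Quantile normalization moved the median log2 change of all genes from MEFs to iPSCs from -0.14 to 0.05, and unique reads as library sizes moved that of H3 to 0.92 from MEFs to pre-iPSCs. The cause of these shifts was not tested.

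Leaving out 1 library at a time gave, in the order pre-iPSCs against MEFs, iPSCs against pre-iPSCs and iPSCs against MEFs, 1025 to 2869, 36 to 2133 and 655 to 3691 genes called by expression, 96 to 903, 0 to 69 and 590 to 2265 promoters by H3K4me3, and 396 to 857, 9 to 129 and 469 to 1184 by H3K27me3. The highest counts of expression came without MEF replicate 1. For H3 the ranges were 0 to 4582 and 0 to 2143 in the first and second comparison, the upper ends without pre-iPSC replicate 2. Correlations of deviations between samples of the same replicate number were -0.02 to 0.09 for H3K4me3 and -0.01 to 0.09 for H3K27me3. For H3 they were 0.78 between pre-iPSCs and iPSCs and -0.04 and -0.00393 between either and MEFs, so the numbers went together in the reprogrammed cells alone. The replicate block therefore stands as an alternative for ChIP. For expression they were 0.35, -0.20 and 0.11, so the numbers did not pair these samples either. The term for the table was kept there because the 2 tables were made separately, and without it the counts were 1997, 1124 and 3004 and no call of a member was lost. The replicate block of the ChIP fits left the H3 counts at 0, ended the H3K27me3 calls of Tdh (adjusted p = 0.0547) and Shmt2 (0.0549), and added the H3K4me3 call of Psph (0.0458). Low read counts at each promoter limit what single members can show.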
